A study of Homo sapiens and Mus musculus with 12 samples.

Results

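The genes described here are 10 members of the BCL2 family, which decide at the mitochondrion whether a cell survives or dies, measured by RNA-seq in 2 breast cancer cell lines. They were chosen by name: the guardians BCL2, BCL2L1 (BCL-xL) and MCL1, the BH3-only genes BCL2L11 (BIM), BMF, BBC3 (PUMA), PMAIP1 (NOXA) and BID, and the effectors BAX and BAK1, with the mouse genes of the same symbols. All 10 were found among 63677 human gene identifiers and all 10 among 47729 mouse identifiers, and all 10 passed the filter on low counts in each line. MDA-MB-231 is a human triple-negative breast cancer (TNBC) line and 4T1 is a mouse mammary carcinoma line, both wild type in the labels. Cells of each line received 1 µM ponatinib, an inhibitor of several tyrosine kinases, or the solvent DMSO for 24 h. There were 3 libraries per group and 12 in all, and each species is represented by a single line.

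Guardian proteins hold the effectors BAX and BAK in check. BH3-only proteins sense stress and either occupy the guardians or engage the effectors directly, and freed effectors open the outer mitochondrial membrane so that cytochrome c can switch on caspases. In breast cancer cells MCL1 and BCL-xL are the guardians most often studied as drug targets, and BIM is known as the BH3-only protein that is degraded when the RAS-ERK pathway is active. Counts per gene do not separate splice forms (such as the long and short forms of BCL-xL and MCL1, or the BIM forms) and say nothing of protein.

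With ponatinib, MDA-MB-231 cells held fewer transcripts of the guardians BCL2 and MCL1, 2.29-fold and 2.31-fold lower, and more of the BH3-only genes BMF (14.6-fold), BBC3 (3.63-fold) and BCL2L11 (1.88-fold). 4T1 cells had mean Mcl1 levels of 170.4 and 173 CPM in overlapping libraries, Bcl2 1.64-fold higher, and higher Bmf (2.85-fold), Pmaip1 (1.92-fold) and Bid (1.88-fold). BMF was the only member called in the same direction in both lines, and BCL2, BBC3, PMAIP1, BID and BAX were called in opposite directions. BCL2L1 fell by a similar amount in both lines (log2 fold changes -0.18 and -0.16) but missed the call in 4T1 (adjusted p = 0.0513). With the replicate number as a block BCL2L1 was called lower in both lines, whereas its call in MDA-MB-231 was lost in 8 of 13 alternative analyses. The BAX call was lost in 4 of 13 in each line. A gene was called at an adjusted p under 0.05 in edgeR's quasi-likelihood test, fitted over all genes tested in a line with Benjamini-Hochberg adjustment, and every adjusted p given here comes from that test unless another is named.

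Each MDA-MB-231 library held between 15012884 and 17301760 counts, and each 4T1 library between 17800675 and 18951493. Levels are given as CPM, that is, counts scaled to a common library size with TMM factors. The replicate 1 library of each group stood farther from the others: its chi-square per gene against replicates 2 and 3 was 8.17 to 14.7, against 2.86 to 6.62 between replicates 2 and 3. A member's call that changes without these libraries is named beside the gene. The labels call the cells epithelial, and KRT8 was 889.8 CPM in DMSO-treated MDA-MB-231, but the epithelial marker CDH1 was at 0 there and KRT5 at 0 in all 6 libraries, whereas Cdh1 was 830.5 CPM in 4T1. The hormone receptor genes ESR1 and PGR were at 0.0635 and 0.643 CPM in DMSO-treated MDA-MB-231, and ERBB2 (HER2) was at 98.1 CPM with DMSO and 172 CPM with ponatinib and was called higher. Of 10 leukocyte markers, 4 in MDA-MB-231 and 6 in 4T1 were at 0 in every library, PTPRC and Cd3e among them, and Cd14 was the one that stood high in 4T1, at 237 CPM with DMSO and 144 CPM with ponatinib. Their sum was 2.64 to 5.22 CPM over all MDA-MB-231 libraries, and in 4T1 it was 224 to 249.7 CPM with DMSO and 138 to 156 CPM with ponatinib. Of 8 endothelial and fibroblast markers, 2 were tested in MDA-MB-231 and both were called higher, against 27.2% of all genes tested. The list summed there to 26.8 to 32.1 CPM with DMSO and 81.7 to 88.5 CPM with ponatinib, mostly COL1A1. PECAM1 was at 0 in all 6 libraries. In 4T1 that list had 1 lower and 1 higher of 2 tested, against 29.4% and 29.5% of all genes, and summed to 4.10 to 9.05 CPM. Epithelial markers were called higher for 4 of 8 tested in MDA-MB-231, against 27.2% of all genes, and lower for 0, against 26.8%. Their sums were 1669.5 to 2041 CPM with DMSO and 2300.0 to 2866 CPM with ponatinib. Most of that rise was KRT8 (889.8 to 1638 CPM), while KRT19 was at 737 and 723 CPM. In 4T1 the epithelial markers were lower for 3 and higher for 2 of 9, against 29.4% and 29.5% of all genes. Mesenchymal markers were lower for 2 and higher for 2 of 6 in MDA-MB-231, against 26.8% and 27.2% of all genes. In 4T1 they were lower for 4 and higher for 1 of 6, against 29.4% and 29.5%. Their sum there was 6738 to 7709 CPM with DMSO and 4791 to 5234 CPM with ponatinib. Most of that fall was Fn1 (3414 to 969.5 CPM), while mean Vim went from 3257 to 3605 CPM and Sparc from 249.5 to 355 CPM. The part of these shifts in the results was not tested. In bulk RNA a changed level per cell and a changed mix of cells cannot be told apart.

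Counted over the members, MDA-MB-231 had 6 lower, 3 higher and 1 not called, so that 9 of 10 were called against 54.0% of the 14610 genes tested (26.8% lower and 27.2% higher). The DMSO and ponatinib groups did not overlap for 9 members, against 60.4% of all genes tested. In 4T1, 1 member was lower, 6 were higher and 3 were not called, 7 of 10 called against 59.0% of the 13286 genes tested (29.4% lower and 29.5% higher). The groups did not overlap for 8 of them, against 63.4% of all genes. For the 10 members the median log2 fold change in 4T1 was 0.26 (all genes 0.00), and in MDA-MB-231 it was -0.27 (all genes 0.02). A log2 fold change below -1 was called for BCL2 and MCL1 in MDA-MB-231, 2 of 10 against 5.16% of genes, and for no member in 4T1, against 4.84%. A log2 fold change over 1 was called for BMF and BBC3 in MDA-MB-231, 2 of 10 against 10.7%, and for Bmf in 4T1, 1 of 10 against 9.57%. Members called in both lines in opposite directions numbered 5 of 10, against 10.6% of the 9842 genes tested in each line, and those called in the same direction 1 of 10, against 27.3%. The latter count leaves out BCL2L1, which missed the call in 4T1 at an adjusted p of 0.0513.

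**Figure D1:**
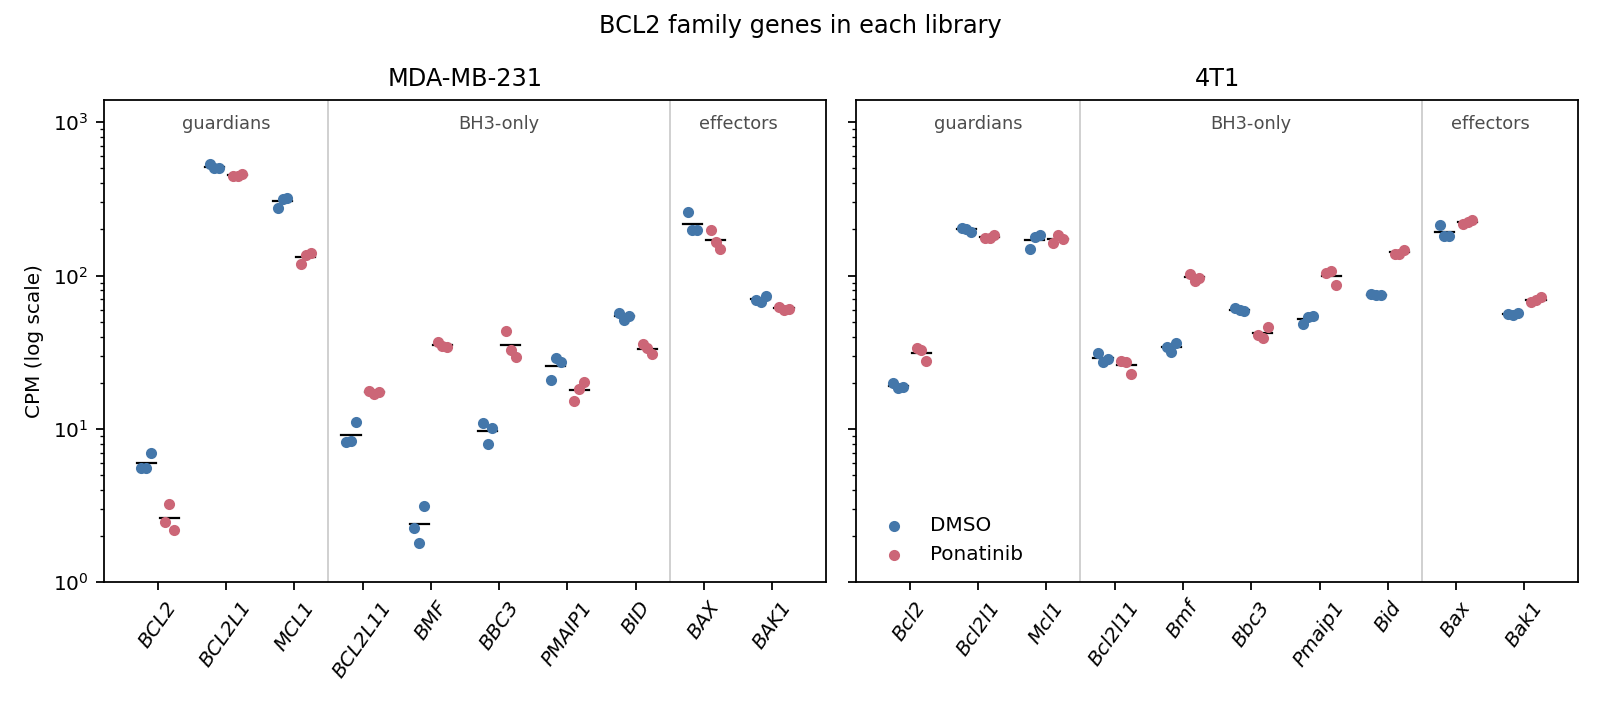
Level of each member in each library, in CPM on a log axis, with 1 point per library and a bar at the mean of 3, for MDA-MB-231 (left) and 4T1 (right). BMF in MDA-MB-231 moves from 1.81 to 3.15 CPM with DMSO up to 34.1 to 36.8 CPM with ponatinib, while MCL1 falls in MDA-MB-231 and its points overlap in 4T1.

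MCL1, a short-lived guardian that binds NOXA and BIM, measured 275, 316 and 322 CPM in the DMSO libraries of MDA-MB-231 and 119, 137 and 139.6 CPM with ponatinib. Every treated library lay at less than 140 CPM and every control at 275 or more, and the log2 fold change was -1.21 (SE 0.09, n = 3 and 3, adjusted p = 8.74e-07). In 4T1, Mcl1 measured 150.0, 178 and 183 CPM with DMSO and 162, 184 and 174 CPM with ponatinib. These ranges overlapped, with a log2 fold change of 0.02 (SE 0.09, 95% interval -0.16 to 0.21, adjusted p = 0.832), so a change of the size seen in MDA-MB-231 lies outside the interval. The 2 responses differed by 1.16 on the log2 scale (SE 0.13, adjusted p = 1.02e-06, interaction of line and treatment). By gene start and end, human MCL1 overlaps ADAMTSL4 on the opposite strand. ADAMTSL4 moved the other way, from 39.4 to 81.1 CPM (log2 fold change 1.04, adjusted p = 1.25e-06). Overlaps here and below are of gene spans, and whether exons are shared was not checked. Whether counting used strand is not given in the sources used here.

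BCL2, the founding guardian of the family, was the least abundant guardian per kilobase of exon in each line. It measured 5.57, 5.57 and 6.92 CPM in DMSO-treated MDA-MB-231 and 2.46, 3.25 and 2.19 CPM with ponatinib, from 39 to 110 counts per library. The groups were apart and the log2 fold change was -1.20 (SE 0.20, adjusted p = 4.23e-04). In 4T1 the direction was the opposite: 19.8, 18.6 and 18.9 CPM with DMSO and 33.6, 32.7 and 27.9 CPM with ponatinib. All treated libraries were above all controls there (log2 fold change 0.72, SE 0.11, adjusted p = 4.15e-05), and the responses differed by 1.85 (SE 0.21, adjusted p = 1.07e-06).

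BCL2L1, whose main product BCL-xL guards against BAX and BAK, was the most abundant guardian per kilobase in MDA-MB-231, whereas its order against Mcl1 in 4T1 depended on the length used. It measured 532, 502 and 501 CPM with DMSO and 446, 447 and 461 CPM with ponatinib in MDA-MB-231. The groups did not overlap, yet the log2 fold change was only -0.18 (SE 0.07, adjusted p = 0.0457). The call was lost when any single library was left out (log2 fold changes of -0.20 to -0.16) and with total counts as the scale (-0.08, adjusted p = 0.275). It was also lost with a minimum of 10 counts per library (-0.15, adjusted p = 0.0827). With the replicate number as a block the adjusted p was 2.30e-04. Bcl2l1 in 4T1 measured 204, 202 and 193 CPM with DMSO and 177, 175 and 183 CPM with ponatinib, a log2 fold change of -0.16 (SE 0.07) that missed the threshold (adjusted p = 0.0513) and passed it with the replicate number as a block (adjusted p = 0.0287). The difference between the lines was -0.06 (SE 0.10, 95% interval -0.26 to 0.15, adjusted p = 0.697).

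Among the BH3-only genes, BMF, BBC3 and BCL2L11 rose in MDA-MB-231. BMF encodes a BH3-only protein that is held at the cytoskeleton in resting cells, and BIM, the product of BCL2L11, binds all the guardians. The windows around the transcription starts of BMF and BCL2L11 are shown because BCL2L11 is a known target of FOXO factors. BMF rose beside it, as did BBC3, whose window is not printed. The windows also let the human and mouse genes, which differed in response, be set side by side. Each window runs from 250 bases before to 50 after the start, 5′ to 3′ on the strand of the gene, with matches on either strand to a FOXO motif (GTAAACA, or TGTTTAC when read from the other strand) or to a GC box (GGGCGG, or CCGCCC from the other strand) in capitals. The human windows are from RefSeq (GRCh38.p14) and the mouse windows were read from GRCm39 at the canonical starts of GENCODE vM39. They lie at chr15:40108830-40109129 (minus strand) for BMF, chr2:111120664-111120963 (plus) for BCL2L11, chr2:118380128-118380427 (minus) for mouse Bmf and chr2:127967708-127968007 (plus) for mouse Bcl2l11.
BMF: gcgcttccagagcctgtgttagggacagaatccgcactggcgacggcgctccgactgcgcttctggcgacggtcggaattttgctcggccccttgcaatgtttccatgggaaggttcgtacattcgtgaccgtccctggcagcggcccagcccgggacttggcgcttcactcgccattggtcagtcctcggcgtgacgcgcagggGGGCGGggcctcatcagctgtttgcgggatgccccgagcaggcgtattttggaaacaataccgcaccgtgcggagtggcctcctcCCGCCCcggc
BCL2L11: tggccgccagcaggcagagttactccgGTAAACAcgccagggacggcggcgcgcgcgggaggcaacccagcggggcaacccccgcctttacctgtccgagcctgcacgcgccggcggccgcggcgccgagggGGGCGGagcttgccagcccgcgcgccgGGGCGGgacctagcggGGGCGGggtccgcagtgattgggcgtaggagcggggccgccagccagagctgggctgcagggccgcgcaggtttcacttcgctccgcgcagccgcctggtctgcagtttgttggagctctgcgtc
Bmf: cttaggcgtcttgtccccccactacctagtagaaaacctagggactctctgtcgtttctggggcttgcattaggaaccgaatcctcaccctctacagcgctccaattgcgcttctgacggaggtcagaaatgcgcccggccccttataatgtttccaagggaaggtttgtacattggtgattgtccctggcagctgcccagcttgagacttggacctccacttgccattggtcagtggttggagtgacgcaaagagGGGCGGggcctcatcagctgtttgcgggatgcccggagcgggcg
Bcl2l11: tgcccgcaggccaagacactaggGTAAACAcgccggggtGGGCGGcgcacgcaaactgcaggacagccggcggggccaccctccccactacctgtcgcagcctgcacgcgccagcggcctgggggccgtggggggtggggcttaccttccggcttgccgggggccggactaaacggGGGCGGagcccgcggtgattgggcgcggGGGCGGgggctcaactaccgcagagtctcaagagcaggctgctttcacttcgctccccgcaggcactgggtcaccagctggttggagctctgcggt

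The FOXO letters stood once in the BCL2L11 window, beginning at position -223 from the start, and once in the mouse window, at -227. They were not in the windows printed for BMF and Bmf, nor in the other RefSeq window of BMF. The letters occur in 3.42% of 35116 human windows and 3.15% of 21770 mouse windows of this length. Among the other members, the FOXO letters occurred in mouse Bak1, at -69. A GC box occurred in all 4 windows, and in 45.0% of human and 42.5% of mouse windows. Windows were matched for 9 of 10 human members (15 windows) and 10 of 10 mouse members, and MCL1 had no entry. In them an AP-1 site (TGANTCA, 7.71% of human and 7.14% of mouse windows) was found once, in BBC3 at -113, and a cyclic AMP response element (TGACGTCA, 1.85% and 2.44%) once, in Pmaip1 at 10. E-boxes (CACGTG, 7.26% and 7.81%) stood in BBC3, in 2 of the BID windows and in BAX and Bax. No match of one motif overlapped a match of another. These are matches of letters and show no binding.

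BMF measured 2.25, 1.81 and 3.15 CPM in the DMSO libraries of MDA-MB-231, from 28 to 50 counts, and 36.8, 34.7 and 34.1 CPM with ponatinib. The treated libraries were close to each other and far above the controls, and the log2 fold change was 3.86 (SE 0.16, adjusted p = 9.51e-09). It ranked 59 among the 14610 genes tested by the size of its change, with 0.397% of genes changing more. In 4T1, Bmf was already higher in the controls, at 34.0, 31.8 and 36.4 CPM, and measured 102, 92.8 and 96.7 CPM with ponatinib. The log2 fold change of 1.51 (SE 0.08, adjusted p = 1.94e-09) was the largest of the 10 members in 4T1. The rise was smaller in 4T1, and the responses differed by -2.42 (SE 0.18, adjusted p = 3.90e-09).

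BCL2L11 measured 8.16, 8.29 and 11.1 CPM with DMSO in MDA-MB-231 and 17.7, 16.8 and 17.4 CPM with ponatinib. All treated libraries were above all controls (log2 fold change 0.91, SE 0.14, adjusted p = 1.86e-04). In 4T1, Bcl2l11 measured 31.1, 27.3 and 28.5 CPM with DMSO and 27.8, 27.2 and 22.9 CPM with ponatinib. The ranges overlapped (log2 fold change -0.16, SE 0.11, 95% interval -0.38 to 0.07, adjusted p = 0.213), and the responses differed by -1.14 (SE 0.18, adjusted p = 3.15e-05). In the human genome BCL2L11 overlaps the noncoding gene MIR4435-2HG on the opposite strand, which fell from 74.1 to 49.4 CPM (log2 fold change -0.59, adjusted p = 6.60e-04). The genes whose log2 CPM, centred within each line, came closest to BCL2L11 over the 12 libraries were GTF2IRD1, SH3PXD2B and TMCO4. Their root mean square differences from BCL2L11 were 0.104, 0.114 and 0.116, against a median of 0.455 over 9841 genes.

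BBC3 encodes PUMA, a BH3-only protein that binds every guardian. In MDA-MB-231 it measured 10.9, 7.96 and 10.2 CPM with DMSO and 43.6, 32.6 and 29.5 CPM with ponatinib. The lowest treated library was above the highest control by more than the range of the controls, and the log2 fold change was 1.86 (SE 0.16, adjusted p = 2.76e-06). In 4T1, Bbc3 was the only member called lower: 61.1, 59.7 and 58.5 CPM with DMSO and 40.7, 39.0 and 46.1 CPM with ponatinib (log2 fold change -0.51, SE 0.09, adjusted p = 1.29e-04). With these opposite signs, the responses differed by -2.44 (SE 0.19, adjusted p = 7.63e-09), the largest difference of the 10 members.

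PMAIP1 encodes NOXA, which binds MCL1 and favours its degradation. It measured 21.0, 29.1 and 27.2 CPM with DMSO and 15.2, 18.3 and 20.2 CPM with ponatinib in MDA-MB-231. The highest treated value and the lowest control value lay next to each other, and the log2 fold change was -0.52 (SE 0.14, adjusted p = 0.00862). Pmaip1 in 4T1 went the other way, from 48.0, 53.5 and 54.3 CPM to 104, 107 and 87.1 CPM. The groups were well apart (log2 fold change 0.94, SE 0.09, adjusted p = 7.89e-07), and the responses differed by 1.39 (SE 0.18, adjusted p = 3.20e-06).

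BID links death receptors to the mitochondrion, since caspase-8 cleaves it into its active form. It measured 57.4, 51.4 and 54.2 CPM with DMSO and 36.0, 33.6 and 30.6 CPM with ponatinib in MDA-MB-231 (log2 fold change -0.70, SE 0.09, adjusted p = 6.04e-05). Bid in 4T1 measured 75.8, 74.6 and 75.0 CPM with DMSO and 139, 139 and 146 CPM with ponatinib (log2 fold change 0.91, SE 0.07, adjusted p = 5.91e-08). The groups did not overlap in either line and moved in opposite directions, with a difference of 1.54 (SE 0.11, adjusted p = 3.68e-09). Mouse Bid overlaps Bcl2l13 on the opposite strand, which was at 135 CPM with DMSO and 117 CPM with ponatinib (log2 fold change -0.20, adjusted p = 0.0232).

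BAX and BAK1 are the effectors. BAX, which moves to mitochondria when activated, measured 259, 197 and 199 CPM with DMSO and 199.6, 165 and 149.5 CPM with ponatinib in MDA-MB-231. The highest treated library lay within the control range, and the log2 fold change was -0.35 (SE 0.12, adjusted p = 0.0322). The call was lost with total counts (log2 fold change -0.25, adjusted p = 0.0541) and without DMSO replicate 1 (-0.22), ponatinib replicate 2 (-0.33) or ponatinib replicate 3 (-0.26). Within each pair of same-numbered libraries the treated value was the lower one, and the replicate block gave an adjusted p of 2.77e-07. Bax in 4T1 measured 215, 181 and 180.2 CPM with DMSO and 218, 224 and 229 CPM with ponatinib. The lowest treated library was just above the highest control (log2 fold change 0.22, SE 0.08, adjusted p = 0.0288), and the call was lost without DMSO replicate 2 or 3 (0.18 each), ponatinib replicate 2 (0.22) or ponatinib replicate 3 (0.21). The responses differed by 0.50 (SE 0.16, adjusted p = 0.0154).

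BAK1 encodes BAK, the effector that sits in the mitochondrial membrane and is held there by MCL1 and BCL-xL. In MDA-MB-231 it measured 69.6, 66.8 and 73.3 CPM with DMSO and 62.5, 59.7 and 60.8 CPM with ponatinib. The groups did not overlap, but the log2 fold change of -0.20 (SE 0.08) missed the threshold (adjusted p = 0.0501). It passed with the replicate number as a block (adjusted p = 0.00344), with DESeq2's size factors (adjusted p = 0.0445) and without the replicate 1 libraries (log2 fold change -0.22, adjusted p = 0.0117). Bak1 in 4T1 measured 56.0, 55.3 and 57.3 CPM with DMSO and 67.7, 68.8 and 72.3 CPM with ponatinib. Here the treated libraries were all higher (log2 fold change 0.31, SE 0.07, adjusted p = 0.00256), and the responses differed by 0.43 (SE 0.11, adjusted p = 0.00281). Mouse Bak1 overlaps Ggnbp1 on the opposite strand, a gene at 4.04 CPM with DMSO and 5.99 CPM with ponatinib.

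**Figure D2:**
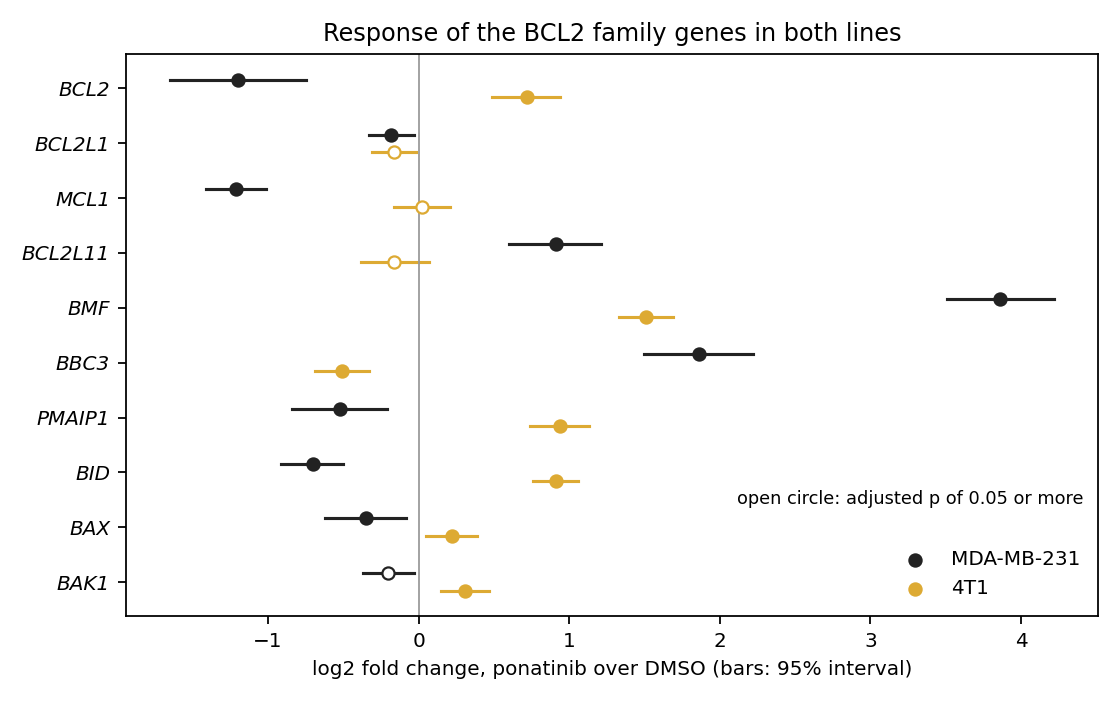
Log2 fold change of ponatinib over DMSO for each member with its 95% interval, MDA-MB-231 in black and 4T1 in gold, from 3 libraries per group, with open circles where the adjusted p was 0.05 or more. BMF lies to the right of 0 in both lines (3.86 and 1.51), while BCL2, BBC3, PMAIP1, BID and BAX lie on opposite sides of 0.

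The response of 9 of the 10 members differed between the lines, against 41.9% of the 12495 genes with matched symbols. It was higher in 4T1 for 6 members (BCL2, MCL1, PMAIP1, BID, BAX and BAK1), against 20.0% of genes, and lower for BCL2L11, BMF and BBC3, against 21.9%. Guardians and effectors called as different were thus all higher in 4T1, whereas the BH3-only genes were split. This fit scales all 12 libraries together over the matched genes, so a difference can depart slightly from the subtraction of the 2 fold changes. Species, line and origin of the tumour cannot be told apart in this comparison. The same 9 members were called in every alternative analysis of the difference, with 3 lower and 6 higher each time.

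To compare levels between genes, CPM was divided by the length of the merged exons of each gene in kilobases. In DMSO-treated MDA-MB-231 the order was BCL2L1 (122 CPM per kilobase), BAX (84.5), MCL1 (49.0), BAK1 (31.6), BID (12.3), PMAIP1 (11.8), BBC3 (3.04), BCL2L11 (1.36), BCL2 (0.477) and BMF (0.441). Library ranges overlapped only for the neighbours BID and PMAIP1 and for BCL2 and BMF. With ponatinib, MCL1 stood at 21.2 CPM per kilobase below BAK1 at 27.6, BBC3 had risen past BID and PMAIP1 to 11.1, BMF had passed BCL2L11 at 6.46 and BCL2 was last at 0.209. At the top, BCL2L1 (108) and BAX (66.2) kept their places, and PMAIP1 (8.20) and BID (7.55) overlapped again.

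In DMSO-treated 4T1 the order per kilobase was Bax (103), Mcl1 (48.8), Bcl2l1 (38.9), Bak1 (23.3), Pmaip1 (19.0), Bbc3 (12.5), Bid (7.67), Bmf (6.48), Bcl2l11 (2.86) and Bcl2 (2.07), with no overlap between neighbours. With ponatinib, Pmaip1 rose in the order to 36.4 CPM per kilobase, overlapping Bcl2l1 at 34.7, and Bmf (18.5) and Bid (14.4) stood above Bbc3 (8.76). Bcl2 (3.41) and Bcl2l11 (2.57) exchanged the last places. The order depends on the length used. With the canonical transcript, BAX (275) stood above BCL2L1 (199) in DMSO-treated MDA-MB-231, and MCL1 (33.4) stayed above BAK1 (28.1) with ponatinib. In 4T1 Bcl2l1 (61.2 with DMSO and 54.6 with ponatinib) then stood above Mcl1 (48.8 and 49.6). Bcl2l11 (5.74 and 5.14) stayed above Bcl2 (2.64 and 4.33), so the last places were not exchanged. Bid ranked 4 (34.1) in DMSO-treated 4T1 and 2 (64.2) with ponatinib.

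**Figure D3:**
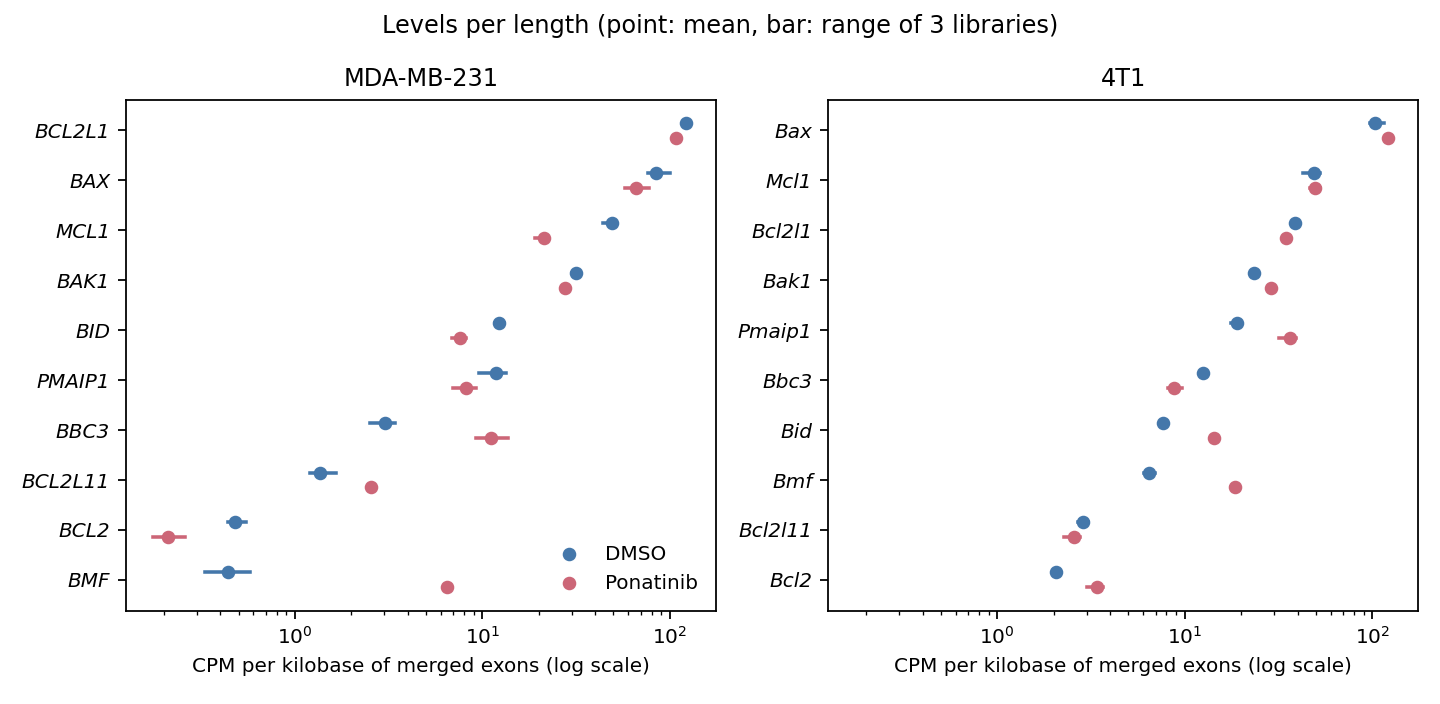
Level of each member in CPM per kilobase of merged exons, on a log axis, with the mean as a point and the range of 3 libraries as a bar, DMSO in blue and ponatinib in red, for each line in the order of its DMSO levels. BMF moves from the last place (0.441) to 6.46 in MDA-MB-231, and Bmf from 6.48 to 18.5 in 4T1.

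Summed per kilobase within a role, the members gave the following medians over 3 libraries, as a description. In MDA-MB-231 the guardians were at 171 (171 to 172) with DMSO and 129 (126 to 133) with ponatinib. The BH3-only genes were at 29.0 (27.6 to 30.1) and 35.1 (34.3 to 38.2), and the effectors at 110.2 (106 to 131) and 90.7 (85.3 to 105). BMF held 1.50% of the BH3-only sum with DMSO and 18.1% with ponatinib. In 4T1 the guardian sum overlapped between the groups, at 92.2 (84.9 to 92.3) and 88.4 (84.5 to 90.4). The BH3-only sum was 48.4 (47.6 to 49.5) with DMSO and 81.9 (77.1 to 83.0) with ponatinib, and the effector sum 121 (120.2 to 139) and 149 (146 to 153). Bmf held 13.6% and 23.3% of the BH3-only sum. These sums also depend on the length used. With the canonical transcript the guardian medians in MDA-MB-231 were 277 with DMSO and 209 with ponatinib. The effectors then stood above them, at 285 and 235. In 4T1 the BH3-only medians were then 88.2 and 142. The BMF shares were computed with merged exons only.

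Other genes of the pathway were read from lists, against the same shares of all genes. On the list of other guardians, 3 of 3 tested were lower in MDA-MB-231 (median log2 fold change -0.42). BCL2A1, which encodes the guardian A1, had 345, 356 and 350 counts with DMSO and 63, 62 and 69 with ponatinib, or 22.7 ± 0.554 and 3.90 ± 0.107 CPM (SD, n = 3). Its log2 fold change was -2.54 (SE 0.12, adjusted p = 2.76e-08), larger in size than that of MCL1. BCL2L2 (BCL-w) and BCL2L12 fell by less (-0.42 and -0.34), the latter losing its call without DMSO replicate 1 (-0.22), ponatinib replicate 2 (-0.34) or replicate 3 (-0.27). In 4T1, 2 of these genes were tested, and Bcl2a1a, the mouse gene listed for BCL2A1, was not among them. The 1 called higher was Bcl2l12 (log2 fold change 0.67, adjusted p = 0.0235), whose groups overlapped. It lost its call in DESeq2 (0.66) and without DMSO replicate 2 (0.59) or 3 (0.50) or ponatinib replicate 3 (0.50).

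Of the other death genes of the family, 7 were tested in each line, with 2 lower and 1 higher in MDA-MB-231 (median -0.17) and 2 lower and 2 higher in 4T1 (median -0.16). The number lower in 4T1 was 1 with total counts and without DMSO replicate 2 or ponatinib replicate 2. BOK, an effector relative, fell in MDA-MB-231 (log2 fold change -0.66, adjusted p = 2.03e-04). BAD, a BH3-only gene whose product binds BCL-xL, was higher in MDA-MB-231 (0.58, adjusted p = 0.0360, groups overlapping, not called without DMSO replicate 2 or 3 or ponatinib replicate 1 or 2), and in 4T1 (0.61, adjusted p = 9.48e-05). Bcl2l14 in 4T1 went from 3, 4 and 2 counts to 137, 150 and 106, a log2 fold change of 5.30 (SE 0.31, adjusted p = 4.13e-09). BNIP3L, known from mitophagy, was lower in 4T1 (-0.34) and, with a call lost in 8 of 13 alternatives, in MDA-MB-231 (-0.22).

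Downstream of the mitochondrion, 15 apoptosome and caspase genes were tested in MDA-MB-231. Of these 5 were lower and 4 higher (median -0.27), against 26.8% and 27.2% of all genes. In 4T1, 14 were tested, 6 lower and 4 higher (median 0.02), against 29.4% and 29.5%. CYCS, which encodes cytochrome c, fell in both lines, from 293 ± 14.2 to 142 ± 9.83 CPM in MDA-MB-231 (log2 fold change -1.04, adjusted p = 9.81e-07) and from 189 ± 17.7 to 86.4 ± 9.89 CPM in 4T1 (-1.13, adjusted p = 1.58e-07; SD, n = 3). DIABLO, whose product relieves caspase inhibition, rose in MDA-MB-231 (0.77, adjusted p = 0.00481). In 4T1 the caspase gene Casp6 rose (1.33, adjusted p = 1.12e-06). With the replicate number as a block, 8 of this list were lower in MDA-MB-231 instead of 5, and without ponatinib replicate 3 the number higher in 4T1 was 2 instead of 4.

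Of the caspase inhibitors, 7 were tested in each line, with 3 lower and 1 higher in MDA-MB-231 (median -0.28) and 3 lower and 3 higher in 4T1 (median -0.14). BIRC3 (cIAP2) was lower in MDA-MB-231 (-0.60, adjusted p = 0.00128) and Birc3 higher in 4T1 (1.11, adjusted p = 9.74e-08). The difference between the responses of this pair is not reported here. Cflar, which blocks caspase-8 at death receptors, fell in 4T1 (-1.22, adjusted p = 5.87e-08). BIRC2 also fell in MDA-MB-231 (-0.39), where NAIP, at 5 to 25 counts per library, rose (1.51). Naip2 rose in 4T1 (0.81), and reads of the near-identical NAIP copies can be split between them. In MDA-MB-231, 6 inhibitors were lower under the replicate block and without the replicate 1 libraries, and 5 without DMSO replicate 1 alone. NAIP, the 1 called higher there, is not tested when 10 counts are asked of every library.

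Death receptors and their ligands numbered 12 tested in MDA-MB-231, 6 lower and 4 higher (median -0.16), against 26.8% and 27.2% of all genes. In 4T1, 9 were tested, 2 lower and 4 higher (median 0.19), against 29.4% and 29.5%. TNFSF10, which encodes the ligand TRAIL, rose from 15, 12 and 8 counts to 68, 66 and 70 in MDA-MB-231 (log2 fold change 2.43, adjusted p = 1.68e-05). Its receptor TNFRSF10A (DR4) fell there (-1.25, adjusted p = 2.42e-05) and the decoy receptor TNFRSF10C rose (1.91, adjusted p = 1.74e-04). Fas rose in 4T1 from 11, 16 and 20 counts to 112, 130 and 130 (2.89, adjusted p = 1.17e-07). The necroptosis genes Ripk3 (-0.63) and Mlkl (-0.46) fell there.

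Regulators of BCL2 family proteins were lower for 12 of 20 and higher for 2 in MDA-MB-231 (median -0.28), against 26.8% and 27.2% of all genes. They were lower for 10 of 20 and higher for 3 in 4T1 (median -0.21), against 29.4% and 29.5%. With total counts as the scale, however, 5 were lower and 5 higher in 4T1. Without DMSO replicate 2 or 3 or ponatinib replicate 2 or 3 only 1 was higher in MDA-MB-231. In MDA-MB-231 VDAC1, the mitochondrial outer membrane channel (-0.71, adjusted p = 6.40e-06), and PGAM5 (-0.75, adjusted p = 6.21e-05) fell, as did BAG1 (-0.61, adjusted p = 0.00610, groups overlapping). In 4T1 Usp9x, a deubiquitinase that stabilises MCL1 protein, fell (-0.86, adjusted p = 6.69e-07), and so did the co-chaperone Bag3 (-0.72, adjusted p = 5.06e-06). Tmbim6 (BAX inhibitor 1) rose in 4T1 from 529.5 ± 20.6 to 781 ± 27.2 CPM (0.56, SD, n = 3, adjusted p = 1.46e-05).

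Transcription factors known to act on family genes numbered 16 tested in MDA-MB-231, 5 lower and 6 higher (median 0.09), against 26.8% and 27.2% of all genes. In 4T1, 15 were tested, 7 lower and 1 higher (median -0.25), against 29.4% and 29.5%. In MDA-MB-231, 3 were lower with total counts and without ponatinib replicate 2. JUN, a subunit of AP-1, fell in each line (-1.53, adjusted p = 2.12e-08, and -3.16, adjusted p = 7.42e-12). FOS, its partner, rose in MDA-MB-231 (2.38, adjusted p = 1.35e-07), and so did DDIT3 (CHOP), which acts on BIM and PUMA in the unfolded protein response (1.50, adjusted p = 2.50e-05). Foxo1 (-0.59, adjusted p = 4.29e-05) and Snai2 (-0.89, adjusted p = 1.32e-07), a repressor of PUMA, fell in 4T1.

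**Figure D4:**
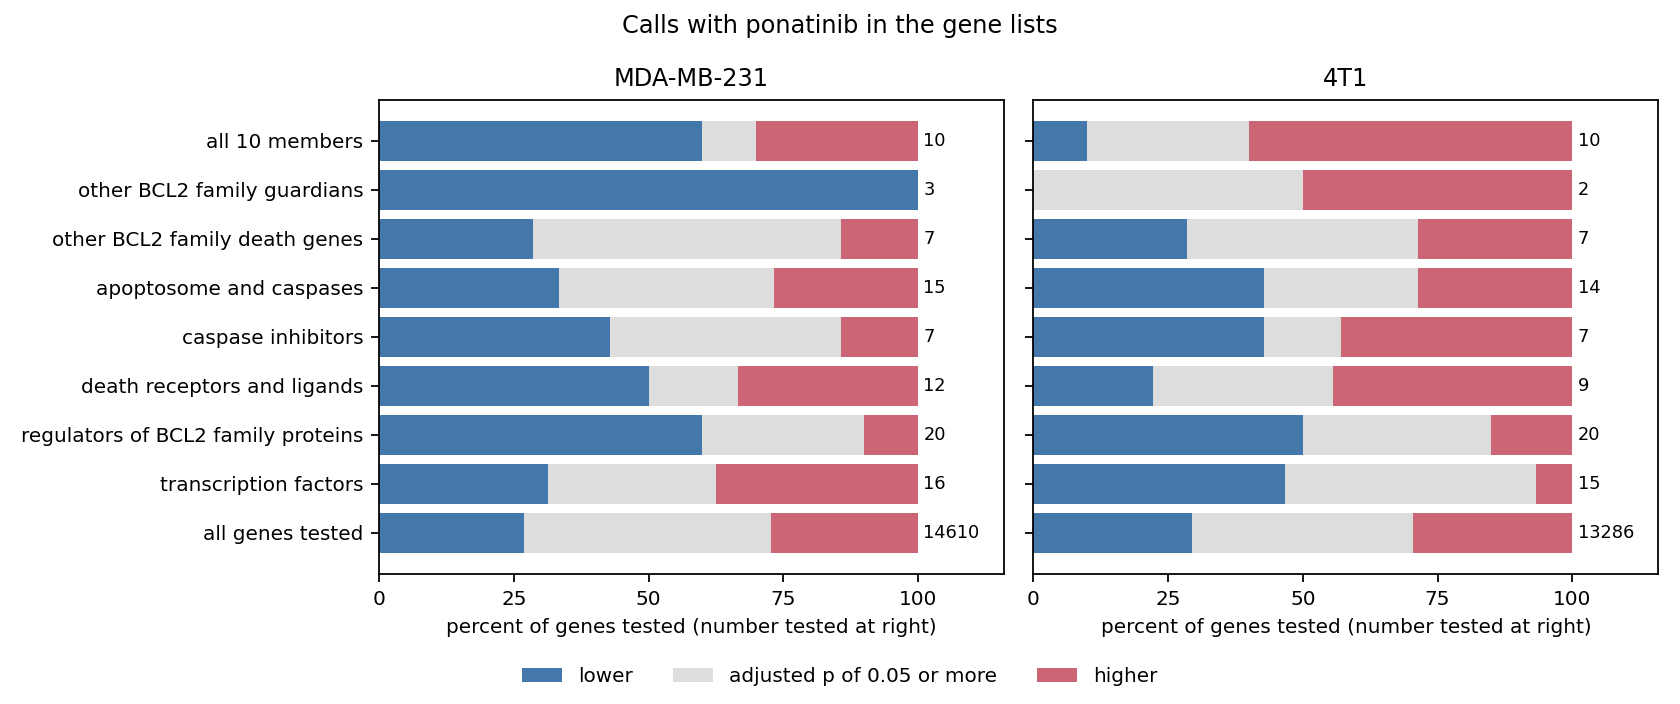
Share of the genes tested in each list that were called lower (blue), called higher (red) or not called (grey) with ponatinib, in percent, with the number tested at the right of each bar and all genes tested in the bottom bar. Among the 10 members the lower share is 6 of 10 in MDA-MB-231 and 1 of 10 in 4T1.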

How the data were processed

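RNA-seq libraries of MDA-MB-231 and 4T1 were grouped by line and treatment from the labels, 3 per group. Per the methods of the study, the authors took out adapters and poly-N reads, aligned with HISAT2 to hg38 or GRCm39 and counted with HTSeq. They deposited these counts per gene as they were, with no normalization. Tool versions, annotation and strand setting are not given in the sources used here. Identifiers matched GENCODE v44 for 81.9% of 63677 human entries (99.3% of counts) and GENCODE vM39 for 91.1% of 47729 mouse entries (99.8%), which gave names and exon lengths.

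Counts were tested within each line by the quasi-likelihood test of edgeR 4.0.16 in R 4.3.3, after filterByExpr and TMM scaling, with Benjamini-Hochberg adjustment over all genes tested. The difference between lines was the interaction term over 12495 genes tested under the same symbol. CPM values use TMM-scaled totals. The procedure was tested on simulated data. Nothing states that replicates were separate cultures, so p-values measure the spread between these samples, which may be technical. The common coefficient of biological variation was 0.0869 for 4T1 and 0.0990 for MDA-MB-231, and no 2 libraries were copies.

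Same-numbered DMSO and ponatinib libraries deviated together from their group means (4T1: r = 0.213, 0.119 and 0.115, and MDA-MB-231: r = 0.345, 0.111 and 0.133). Some libraries of unlike number did so as well: r was 0.163 for DMSO replicate 2 and ponatinib replicate 3 of MDA-MB-231. For DMSO replicate 3 and ponatinib replicate 2 of 4T1 it was 0.119. The remaining unlike-numbered values ran from -0.260 to 0.0577. Replicate numbers are therefore taken only as possible pairs, from these values alone. The main test uses no block, and the replicate block is an alternative.

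The members and lists were chosen with earlier results of these data known. Named genes are all 10 members, up to 3 called genes per list and line with the largest changes whose higher mean reached 1 CPM, and the 3 genes most like BCL2L11. Some genes and 1 list that the rule includes are not reported here. Alternatives were DESeq2 1.42.0, its size factors in edgeR, total counts, TMM within lines, the replicate block, a minimum of 10 counts per library, no filter and each library left out. Leaving out all replicate 1 libraries and canonical transcript lengths were added after seeing the data.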

Additional observations from a re-analysis of the deposited data

Results flagged for a closer look

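The response to ponatinib differed between 4T1 and MDA-MB-231 (edgeR, interaction term) for 9 of the 10 members. Among the guardians, the interaction term of the joint fit (4T1 against MDA-MB-231, log2 scale) was 1.85 for BCL2 and 1.16 for MCL1. Among the BH3-only genes it was -1.14 for BCL2L11, -2.42 for BMF, -2.44 for BBC3, 1.39 for PMAIP1 and 1.54 for BID. For the effectors it was 0.50 for BAX and 0.43 for BAK1. BMF differed in size and not in sign, whereas BCL2, BBC3, PMAIP1, BID and BAX were called with opposite signs in the lines. Differences of this kind were called for 41.9% of the 12495 genes tested.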

How the results depend on the processing

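Members lower in 4T1 numbered 1 in the main analysis and 2 with DESeq2, with DESeq2's size factors in edgeR and with the replicate block, since Bcl2l1 passed the threshold. Leaving out single MDA-MB-231 libraries gave 4 to 5 members lower and 3 higher, and single 4T1 libraries 1 lower and 5 to 6 higher. Without all replicate 1 libraries MDA-MB-231 had 7 lower and 3 higher, and 4T1 had 1 lower and 6 higher. The replicate block also brought BAK1 in MDA-MB-231 past the threshold (7 members lower) and changed no other call among the members. With it the genes higher in 4T1 on the list of other guardians went from 1 to 2, as did the transcription factors higher there. The sign of the log2 fold change of Mcl1 in 4T1, never called, turned to -0.07 without DMSO replicate 1, to -0.02 without ponatinib replicate 2 and to -0.02 without all replicate 1 libraries, within a range of -0.07 to 0.08 over single libraries left out. That of the difference for BCL2L1, never called, turned to 0.04 with total counts, to 0.01 with TMM within lines and to 0.01 without 4T1 DMSO replicate 1 or 2 or 4T1 ponatinib replicate 1 or 2. Over all single libraries left out it ranged from -0.08 to 0.01. With total counts as the scale the median over all genes went from 0.00 to 0.12 (4T1) and from 0.02 to 0.11 (MDA-MB-231), and the share of higher genes among those called from 50.1% to 62.3% (4T1), from 50.4% to 60.0% (MDA-MB-231) and from 47.8% to 58.0% (difference between lines). With that scale 4 members were lower in MDA-MB-231, and with a minimum of 10 counts per library 5 were. The causes were not tested. BCL2 and BMF in MDA-MB-231 rest on the fewest counts of the members, 28 to 50 for BMF with DMSO and 39 to 110 for BCL2.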
